A study of Mus musculus with 8 samples.

Results

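The loss of DAXX was examined in mouse embryonic stem cells that already lacked 3 DNA methyltransferases, a line the labels call TKO. The members were the 4 TKO libraries out of 8 in the series, chosen by their labels: DAXX intact or DAXX knockout, each kept in regular medium or switched for 72 hours to 2i plus vitamin C. 2i is a pair of kinase inhibitors, PD0325901 against MEK at 1 µM and CHIR99021 against GSK3b at 3 µM, and vitamin C was given at 100 µg/ml. All 4 libraries share the methyltransferase knockout. Within each medium the pair of libraries differs in DAXX and in whatever else differs between the knockout cells and their intact counterpart, and these cannot be told apart. The other 4 libraries are the same design in J1, the line whose genotype the labels give as WT. Each of the 8 groups has 1 library, and neither the number of knockout clones nor their origin is given in the sources used here. In the text below, intact and knockout refer to DAXX, and 2i stands for 2i plus vitamin C.

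DAXX is a histone chaperone that works with ATRX to place a histone H3 variant at heterochromatin, including satellite repeats and endogenous retroviruses. DNA methylation is another layer of silencing at the same repeats, carried by the DNA methyltransferases, and TRIM28 and the histone methyltransferase SETDB1 form a layer that acts strongly on the retroviruses. The listed repeats comprise LINE1 elements, which are retrotransposons without long terminal repeats, endogenous retroviruses of the ERVK, ERV1 and ERVL classes, and the major satellite. IAP belongs to ERVK and is a mobile retrovirus-like element, while MERVL of the ERVL class is known as a marker of the 2-cell embryo and of a rare cell state in stem cell cultures. Cytoplasmic polyadenylated RNA was sequenced, so the values below describe transcripts and not chromatin.

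The repeat table listed 17857 elements of at least 5001 bp in 65 families, of which 44 families passed a mean of 1 RPM (reads per M reads of the library total) over the 8 libraries. The other 21 families reached at most 1.82 RPM in any TKO library, and 4 of them had 0 reads. Of the elements, 11322 passed a mean RPKM of 0.1, made up of 9625 LINE, 1696 LTR and 1 satellite element, while 2015 had 0 reads in the 4 TKO libraries. Library totals in TKO were 99.1 M reads in intact regular, 74.5 M in knockout regular, 73.8 M in intact 2i and 76.2 M in knockout 2i. Assembled transcript loci were matched by position over the 4 TKO libraries, which gave 11530 loci out of 42358 groups of overlapping loci, 11195 of them with a mean FPKM of at least 1. The files pair no gene names with these loci, so the levels of Daxx, the methyltransferase genes and the stem cell markers were not checked here.

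Listed repeats took a smaller share of the TKO libraries when DAXX was knocked out. The share was 19.3% of all reads in intact regular and 12.0% in knockout regular, and 14.4% in intact 2i and 8.28% in knockout 2i. LINE1 made up the greater part of the listed reads and of the difference. Summed over families, the young LINE1 families summed to 147791 RPM in intact regular against 71028 RPM in knockout regular, and to 99264 RPM in intact 2i against 40248 RPM in knockout 2i. The sum over LTR families had a knockout over intact ratio of 1.10 in regular medium and 0.954 in 2i. The LTR classes had different directions: the IAP sum had ratios of 2.29 and 2.02, the ERVL sum 0.114 and 0.647, the ERV1 sum 1.70 and 0.728, and the other ERVK families together 1.43 and 0.894.

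**Figure D1:**
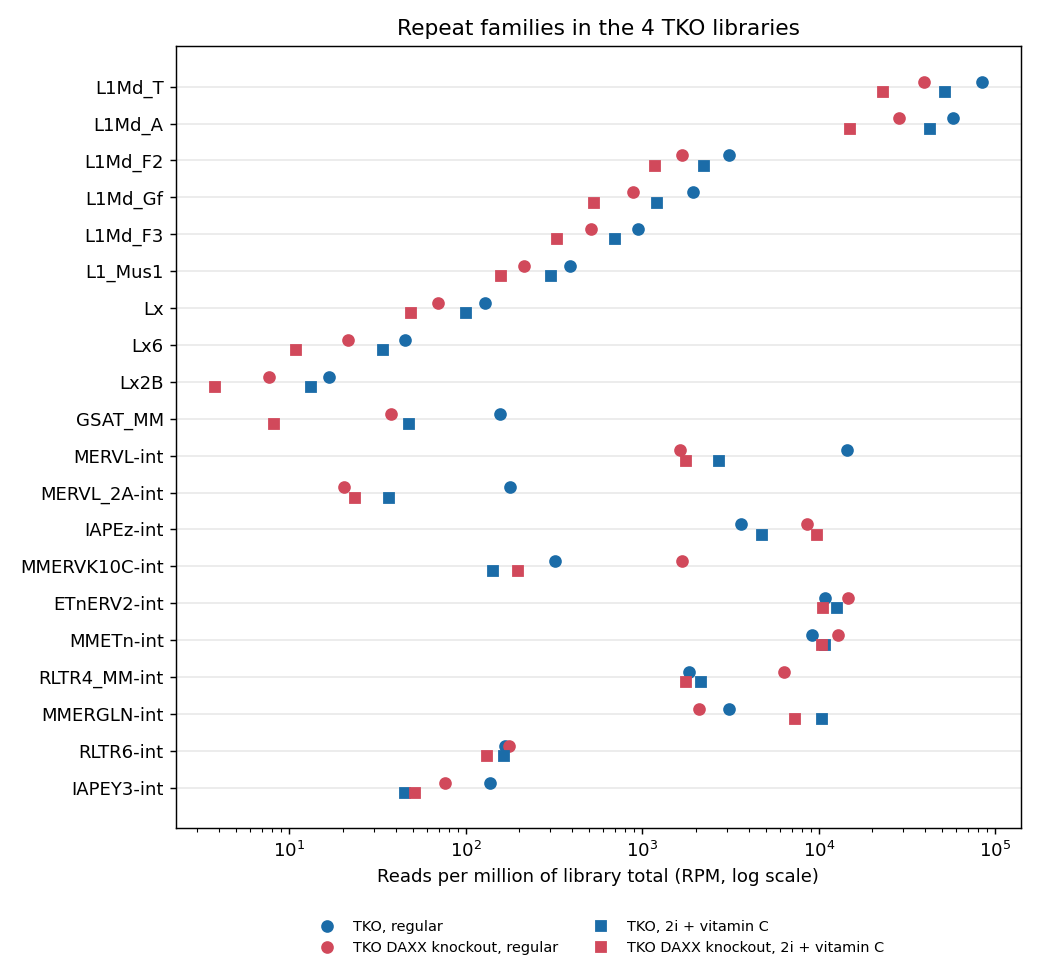
Reads per M of library total (RPM, log scale) for 20 repeat families in the 4 TKO libraries, 1 point per library; blue is DAXX intact, red is DAXX knockout, circles are regular medium and squares are 2i plus vitamin C. The LINE1 families and GSAT_MM have both red points below the blue points of the same medium, IAPEz-int has both above, and the red MERVL-int points lie at 1634 and 1761 RPM, next to each other.

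The major satellite family GSAT_MM was the only family called by the test over both TKO pairs. Major satellite is the tandem repeat of pericentric heterochromatin. Of its 12 listed elements, 11 lie on random scaffolds with 0 reads, so the family is here 1 element of 38417 bp at chr9:3000002-3038419 (mm9). It had 156.5 RPM in intact regular (15511 reads) and 37.6 RPM in knockout regular (2800 reads), and 47.3 RPM in intact 2i (3487 reads) and 8.12 RPM in knockout 2i (619 reads). Both knockout libraries lay below both intact libraries, and the 2i libraries lay below their regular counterparts. The ratio was 0.240 in regular medium (95% exact conditional interval 0.231 to 0.250, for counting error only, as for all such intervals here) and 0.172 in 2i (0.158 to 0.187). The family fell by 2.26 on the log2 scale (SE 0.41) with an adjusted p of 0.0284 (edgeR quasi-likelihood test on counts, Benjamini-Hochberg over 44 families). This was 1 family called lower, 2.27% of the 44 tested, and 0 were called higher (0%); at an unadjusted p under 0.05 there were 24 families (54.5%). The call held with the 4 TKO libraries alone (adjusted p = 0.0395 in edgeR), but was lost with TMM scaling (0.0618 in edgeR) and without the J1 intact regular (0.0695), J1 intact 2i (0.0715), TKO intact regular (0.389) or TKO intact 2i library (0.144).

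In J1 the same satellite element had 94.8 RPM in intact regular and 74.9 RPM in knockout regular, and 33.9 RPM in intact 2i and 43.6 RPM in knockout 2i. The difference of the DAXX change between TKO and J1 was −2.32 log2 (SE 0.56) with an adjusted p of 0.110 in edgeR, so it did not pass the threshold. None of the 44 families passed for this difference in either direction (0% higher, 0% lower), while 19 did at an unadjusted p under 0.05 (43.2%) and DESeq2 called 23 lower. An assembled locus of the same satellite array, at chr9:3024368-3024666, had an FPKM of 212 in intact regular, 38.6 in knockout regular, 69.6 in intact 2i and 39.2 in knockout 2i. The locus and the element thus had the same direction in both media, and the locus differed less in 2i. They were measured in the same libraries and are not independent.

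Relative to library totals, LINE1 transcripts were lower in the knockout in both media in all 6 young families and in 18 of 19 other LINE1 families, a direction that flips for some of them under the scalings given further on. None of them passed the adjusted threshold. L1Md_A and L1Md_T, the most abundant young families, carry promoters of the A and the Tf type. L1Md_A had 57404 RPM in intact regular and 28449 RPM in knockout regular, and 42796 RPM in intact 2i and 14914 RPM in knockout 2i. L1Md_T had 84105 and 39370 RPM in regular medium and 52133 and 23217 RPM in 2i. For each family both knockout values were below both intact values. The fitted change was −1.25 log2 (SE 0.40, adjusted p = 0.0747) for L1Md_A and −1.13 log2 (SE 0.45, adjusted p = 0.0764) for L1Md_T in edgeR. All 6 young families were under an unadjusted p of 0.05, as were 15 of the other LINE1 families.

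The younger families formed a narrow band. Their regular ratios ran from 0.457 in L1Md_Gf to 0.541 in L1Md_F3, and their 2i ratios from 0.348 in L1Md_A to 0.528 in L1Md_F2. Families of the older Lx group spread wider, with the lowest 2i ratios in Lx2B (0.286), Lx7 (0.314), Lx6 (0.321), Lx4A (0.340) and Lx2A1 (0.368). Their regular ratios were 0.461, 0.494, 0.476, 0.508 and 0.438. Each of these Lx families had only 1 or 2 tested elements, against 75 to 4951 in the young families. Lx4B, with 1 tested element, had the lowest LINE1 ratio in regular medium, 0.293, and 0.677 in 2i. The exception in direction was L1VL2, a family of 14 listed elements with 2.68 RPM in intact regular, 2.13 RPM in knockout regular, 1.99 RPM in intact 2i and 2.86 RPM in knockout 2i.

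The count of called families turned on the fit. With the 4 TKO libraries alone, which leaves 1 residual degree of freedom, edgeR called 16 families lower and 1 higher: GSAT_MM, 5 young LINE1 and 10 other LINE1 families were lower, and IAPEz-int was higher. With all 8 libraries the spread also holds how the J1 pairs differ between media. DESeq2 on all 8 libraries called 24 lower and 1 higher. With TMM scaling of the repeat counts no family was called in either direction, and with scaling by LINE1 reads 8 were called higher and 1 lower.

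These counts depend on what is held constant, because LINE1 elements are 9625 of the 11322 tested. Relative to library totals the median element changed by −1.18 log2 over both pairs. TMM scaling set it to −0.03. The assembled loci, which are scaled by the authors' FPKM and not by the repeats, had a median fitted change of 0.04 log2. Scaling the repeat counts by the median of those loci, an alternative chosen after seeing the data, gave a median element of −1.22 and again 1 family lower and 0 higher. By pair ratios, 30 families were lower in both media and 3 higher in both relative to library totals, against 17 and 18 with TMM scaling and 5 and 26 with LINE1 scaling. GSAT_MM stayed below 1 in both media under TMM, median and LINE1 scaling (0.280 to 0.499), IAPEz-int stayed above 1 (3.32 to 5.01), and the 2i ratio of MERVL-int went from below to above 1 (1.05 to 1.59).

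**Figure D2:**
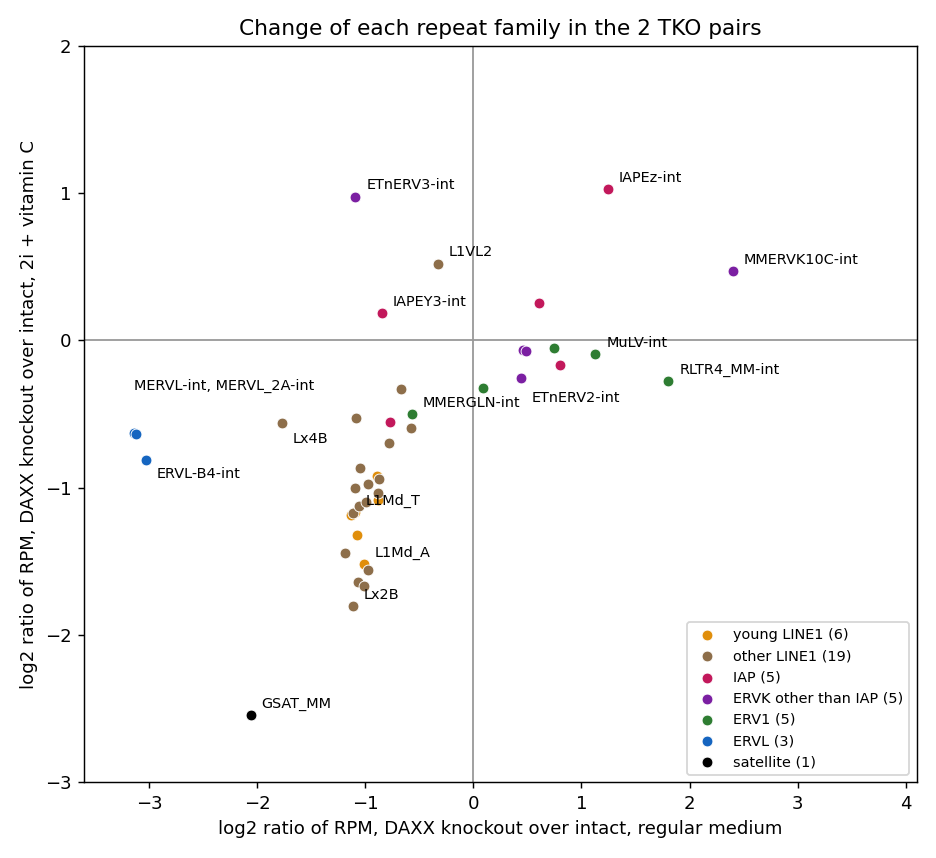
Log2 ratio of RPM, DAXX knockout over intact, in regular medium (horizontal) and in 2i plus vitamin C (vertical) for the 44 families, 1 point per family coloured by class; the lines mark no difference. LINE1 families cluster near −1 on both axes, GSAT_MM is lowest in 2i, the ERVL families lie far left but near −0.6 to −0.8 in 2i, and IAPEz-int is above 1 on both axes.

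ERVL families differed most between the media. MERVL-int, the internal part of MERVL, had 14387 RPM in intact regular and 1634 RPM in knockout regular, and 2722 RPM in intact 2i and 1761 RPM in knockout 2i. The intact regular library stood far above the other 3, and the knockout libraries were close to each other. The ratio was 0.114 (0.113 to 0.114) in regular medium and 0.647 (0.642 to 0.651) in 2i. Over both pairs the change was −1.58 log2 (SE 0.75, adjusted p = 0.117 in edgeR), which did not pass. MERVL_2A-int followed closely, with 178 and 20.5 RPM in regular medium and 36.5 and 23.5 RPM in 2i, and so did the single ERVL-B4-int element with 23.5 and 2.87 RPM and then 3.93 and 2.24 RPM.

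Between the pairs, the log2 ratio in 2i was above that in regular medium by 2.51 for MERVL-int and by 2.49 for MERVL_2A-int. The fitted media term compares the medium change of the TKO knockout with a medium change common to the other 3 lines, J1, J1 knockout and TKO intact. It was 2.62 log2 (SE 0.79, adjusted p = 0.0281) for MERVL-int and 2.64 log2 (SE 0.65, adjusted p = 0.00414) for MERVL_2A-int in edgeR. These were 2 of 44 families with a higher term (4.55%), with 0 lower (0%) and 7 under an unadjusted p of 0.05 (15.9%). ERVL-B4-int and IAPEY3-int each had an adjusted p of 0.0502 in edgeR for this term. A fit that also lets TKO and J1 differ in their medium effect, chosen after seeing the data, tests the difference of the TKO pairs itself and leaves 1 residual degree of freedom. It called 0 of 44 families in either direction, with 4 under an unadjusted p of 0.05, and gave 2.51 log2 (SE 1.14, adjusted p = 0.360) for MERVL-int and 2.49 log2 (SE 1.03, adjusted p = 0.301) for MERVL_2A-int in edgeR. The media difference of the MERVL families thus did not pass the threshold when the pairs alone were set against each other. The calls for MERVL-int and MERVL_2A-int by the term with a common medium effect were also lost with TMM scaling (both 0.0899 in edgeR) and median scaling (both 0.128). They were lost too without J1 intact regular (both 0.805), J1 intact 2i (both 0.820), TKO intact regular (0.0890 and 0.0707) or TKO intact 2i (0.0989 and 0.0643). In these settings the term ranged from 2.19 to 2.97 log2. The intact level itself was lower in 2i in J1 as well, at 9185 RPM in J1 intact regular and 902 RPM in J1 intact 2i for MERVL-int.

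The lower level of MERVL in regular medium was spread over many copies. Among the 575 tested MERVL-int elements the median log2 ratio was −3.23 in regular medium (quartiles −3.38 and −3.06) and −0.67 in 2i (−0.82 and −0.52). In both pairs 567 of them were lower, and 8 were lower in regular medium and higher in 2i. Being lower in both was common by library totals, at 10067 of all 11322 tested elements. The median over all tested elements was −1.06 in regular medium and −1.24 in 2i. The element with most reads, at chr13:65778860-65784175, held 0.437% of the family's reads in intact regular and 1.42% in knockout regular. It ran at an RPKM of 11.8 in intact regular, 4.38 in knockout regular, 5.17 in intact 2i and 5.88 in knockout 2i, a smaller difference in regular medium than in the median copy. Reads that map to several copies may have been shared among them, since their treatment is not given in the sources used here, so the copies are not independent measurements.

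IAPEz-int, the internal part of full-length IAP, was higher in the knockout in both media. It had 3620 RPM in intact regular and 8558 RPM in knockout regular, and 4767 RPM in intact 2i and 9704 RPM in knockout 2i. Both knockout libraries lay above both intact libraries, with ratios of 2.36 (2.35 to 2.37) and 2.04 (2.03 to 2.04). The change of 1.16 log2 (SE 0.60) had an adjusted p of 0.141 in edgeR with all 8 libraries and 0.0395 with the 4 TKO libraries. Leaving out J1 knockout regular or J1 knockout 2i also brought it to an adjusted p of 0.0214 or 0.0210 in edgeR. DESeq2 with all 8 libraries did not call it (adjusted p = 0.550). It passed the threshold in 5 of 18 alternatives. In J1 the values were 2061 RPM in intact regular, 5130 RPM in knockout regular, 3029 RPM in intact 2i and 31233 RPM in knockout 2i, and the J1 knockout 2i library stood far above the rest. The difference of the change between TKO and J1 was −1.41 log2 (SE 0.85, adjusted p = 0.229 in edgeR).

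By library totals, the smaller IAP families did not follow IAPEz-int as a group. In the order regular then 2i, the ratios of IAPEy-int were 1.52 and 1.19, those of IAP-d-int 1.74 and 0.890, IAPEY3-int 0.555 and 1.14, and IAPLTR3-int 0.585 and 0.681. IAPEz-int and IAPEy-int were thus higher in both media, and IAPLTR3-int lower in both, although TMM scaling took the latter to 1.12 and 1.11. With that scaling all 4 smaller families were above 1 in both media. Their ratios then ran from 1.06 in IAPEY3-int to 3.33 in IAP-d-int, both in regular medium. These 4 families are small, at 2.86 to 136 RPM in the TKO libraries. In IAP-d-int the 3 tested elements were higher in both media by their own ratios, against 939 of all 11322 tested elements.

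MMERVK10C-int, another ERVK family, was highest in the knockout in regular medium. It had 319 RPM in intact regular, 1686 RPM in knockout regular, 142 RPM in intact 2i and 197 RPM in knockout 2i. The knockout regular library stood apart, and the other 3 lay between 142 and 319 RPM. The ratios were 5.29 (5.22 to 5.35) and 1.39 (1.35 to 1.42), and the change over both pairs was 1.53 log2 (SE 0.51, adjusted p = 0.0747 in edgeR). DESeq2 called it (adjusted p = 0.00245), and edgeR did without J1 knockout regular (0.0409) or J1 knockout 2i (0.0402). With the 4 TKO libraries alone it was not called (adjusted p = 0.248 in edgeR). It passed the threshold in 6 of 18 alternatives. The log2 ratio in 2i minus that in regular medium was −1.93 (edgeR adjusted p = 0.562), and the term with a common medium effect was −1.64 log2 (SE 0.67, adjusted p = 0.132 in edgeR). By single elements 68 of 75 were higher in both media, against 939 of all 11322 tested elements. Their median log2 ratio was 2.43 in regular medium and 0.50 in 2i. These copies come from the same 4 libraries and may share reads, so they are not independent measurements.

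The ETn group, a set of mobile ERVK elements and their relatives, had smaller and opposite ratios. ETnERV2-int had 10856 RPM in intact regular and 14692 RPM in knockout regular, and 12587 RPM in intact 2i and 10529 RPM in knockout 2i. Its ratios were 1.35 and 0.836, those of MMETn-int 1.40 and 0.952, and those of ETnERV-int 1.38 and 0.954. ETnERV3-int, with 7.93 to 18.8 RPM, went the other way, at 0.469 and 1.97. With TMM scaling the 2i ratios of ETnERV2-int, MMETn-int and ETnERV-int were above 1, at 1.36, 1.55 and 1.56. Adjusted p-values of these 4 families ranged from 0.638 to 0.832 in edgeR.

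ERV1 families, relatives of murine leukaemia virus, split by medium. RLTR4_MM-int had 1824 RPM in intact regular and 6370 RPM in knockout regular, and 2137 RPM in intact 2i and 1762 RPM in knockout 2i. The knockout regular library was alone in being high. MuLV-int had ratios of 2.19 and 0.938, MuRRS-int 1.68 and 0.966, and RLTR6-int 1.06 and 0.800, all higher in regular medium and lower in 2i, as for RLTR4_MM-int at 3.49 and 0.824. MMERGLN-int, the most abundant ERV1 family in 2i, was lower in both media relative to library totals. It had 3106 and 2097 RPM in regular medium and 10417 and 7356 RPM in 2i. No ERV1 family was under an unadjusted p of 0.05 in edgeR, and for RLTR4_MM-int the log2 ratio in 2i minus that in regular medium was −2.08 (edgeR adjusted p = 0.562). Its term with a common medium effect was −1.81 log2 (SE 0.75, adjusted p = 0.132 in edgeR). The 2i ratios of these 5 families were above 1 with TMM scaling, from 1.15 in MMERGLN-int to 1.57 in MuRRS-int. The regular ratio of MMERGLN-int was then above 1 as well, at 1.29.

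Relative to library totals, 44 of the 45 RLTR4_MM-int copies were higher in regular medium and lower in 2i, against 182 of all 11322 tested elements. The copies come from the same 4 libraries and may share reads, so they are not independent measurements. With TMM scaling the 2i ratio of RLTR4_MM-int was 1.34. Its most read copy, at chr10:8264765-8270369, had an RPKM of 24.2 in intact regular, 108 in knockout regular, 27.8 in intact 2i and 18.2 in knockout 2i. An assembled locus at the same place, chr10:8268159-8271066, had an FPKM of 15.0, 58.7, 16.7 and 9.89 in the same order. Repeat counting and transcript assembly gave this copy the same order of libraries. Both draw on the same 4 libraries, so they are not independent measurements.

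**Figure D3:**
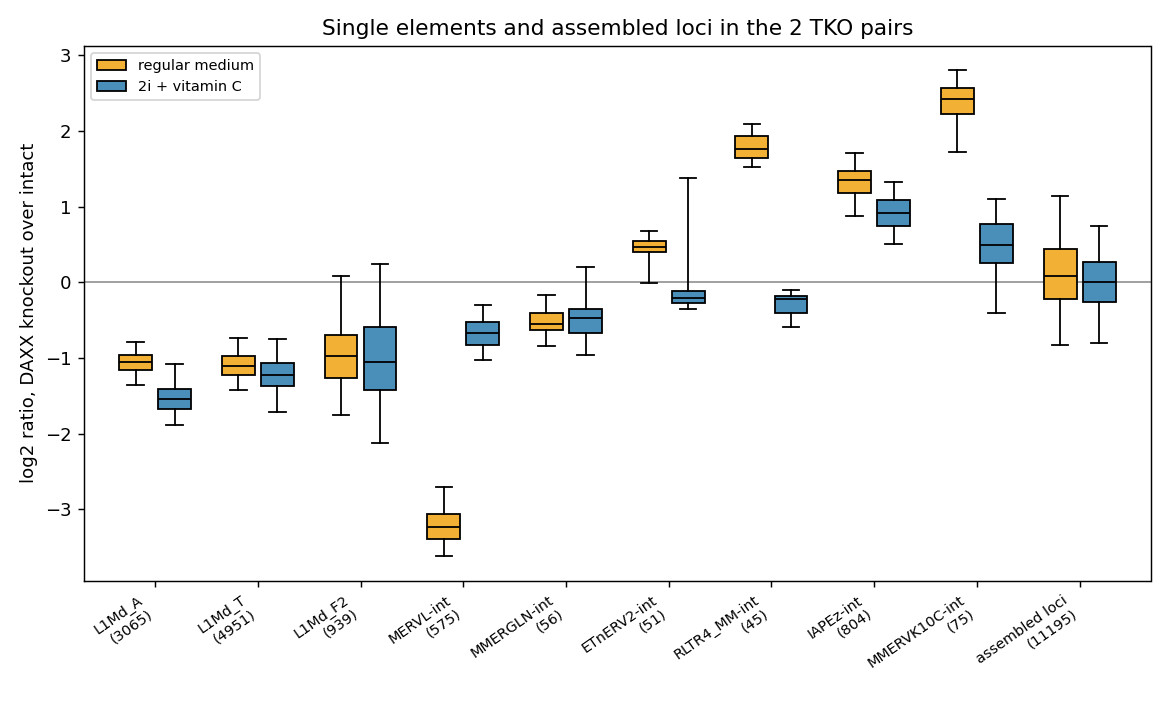
Log2 ratio, DAXX knockout over intact, of the tested elements of 9 families and of the 11195 assembled loci in regular medium (yellow) and in 2i plus vitamin C (blue); boxes span the quartiles with the median as a line, whiskers run from the 5th to the 95th percentile, and the number of elements or loci is in brackets. The LINE1 boxes lie near −1 or below in both media, MERVL-int lies near −3.23 in regular medium and −0.67 in 2i, IAPEz-int lies above 0 in both, and the loci centre near 0.

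Over single elements, edgeR called 6392 of 11322 lower (56.5%) and 387 higher (3.42%) in the knockout, and 8570 were under an unadjusted p of 0.05 (75.7%). The lower calls held 463 of 575 MERVL-int, 2188 of 3065 L1Md_A and 3003 of 4951 L1Md_T copies, and the higher calls held 65 of 75 MMERVK10C-int and 315 of 804 IAPEz-int copies. By size alone, 5446 elements were at least 2-fold lower in both media (48.1%) and 242 were at least 2-fold higher in both (2.14%), of which 233 were IAPEz-int. The called counts were not stable. TMM scaling gave 12 lower and 805 higher, a mean RPKM of at least 1 gave 2 and 0 among 6535 elements, and leaving out J1 intact regular, J1 intact 2i, TKO intact regular or TKO intact 2i gave 18, 22, 3 and 13 lower and 1, 1, 0 and 1 higher.

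Relative to library totals, 11006 of the 11322 elements had the same sign in both media (97.2%), since 10067 were lower in both and 939 higher in both. This share moved with the scaling: it was 51.9% with TMM, 51.4% with median and 51.0% with LINE1 scaling. The TKO pairs share no library. The size of the change within LINE1 was hardly shared between media, with a Spearman coefficient of 0.03 over 9625 LINE elements that come from the same 4 libraries. Among LTR elements it was 0.68 over 1696, and over the 44 families it was 0.66, with 33 of the same sign (75%). The LTR value spans families with different medians. Within the single LTR families where it was computed, it ran from −0.71 in RLTR4_MM-int to 0.26 in RLTR6-int. It was −0.24 over 804 IAPEz-int and 0.23 over 575 MERVL-int elements. Within LINE1 it was 0.02 over 9456 young and 0.58 over 169 other elements.

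LINE elements on every chromosome were shifted alike. The median log2 ratio per chromosome lay between −1.10 and −1.05 in regular medium and between −1.34 and −1.26 in 2i on the autosomes and X, and the 20 tested elements of the Y had −0.95 and −1.13. Length made little difference: L1Md_A elements among the 1022 shortest had medians of −1.08 and −1.55, and those among the 1022 longest −1.05 and −1.55. The 527 LINE elements that overlap an assembled locus had medians of −0.93 and −1.03, against −1.08 and −1.33 for the 9098 outside such loci. The LINE elements inside transcribed loci thus differed less in 2i.

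A single L1Md_A copy at chr17:4082095-4087259 carried 6.13% of the family's reads in intact regular, 7.27% in knockout regular, 5.22% in intact 2i and 6.18% in knockout 2i. Its RPKM was 681 in intact regular, 400 in knockout regular, 432 in intact 2i and 179 in knockout 2i. The element fell by 1.01 on the log2 scale (SE 0.25, adjusted p = 0.0124 in edgeR). The locus assembled within it, at chr17:4082091-4085960, had an FPKM of 228, 161, 341 and 194 in the same order, lower in the knockout in both media as well. Locus and copy were measured in the same libraries and are not independent.

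The elements with the largest called changes were LINE1 copies on the low side. An L1_Mus3 element at chr8:131677827-131683695 had 113 reads in intact regular and 45 reads in intact 2i but 0 reads in both knockout libraries. Against a floor of 3 reads per library it was at least 28.3-fold lower in regular medium and at least 15.5-fold lower in 2i, and the 4 J1 libraries had 38 to 122 reads there. The element was thus not detectable at this depth in the TKO knockout libraries and was read in the other 6. An L1Md_F element at chr14:89206429-89211515 had 4.58 RPM in intact regular, 0.215 RPM in knockout regular, 3.31 RPM in intact 2i and 0.184 RPM in knockout 2i. The L1Md_F2 element at chr13:107282219-107288580 had 2.67, 0.228, 0.881 and 0.0131 RPM in that order, the last from 1 read. In both elements the knockout libraries lay below the intact ones in each medium, a shared direction that the choice of named elements required. An L1Md_F3 element at chr1:142619149-142624498 (log2 −3.12, SE 0.53) and an L1Md_F2 element at chr17:92158729-92164832 (log2 −3.02, SE 0.56) complete the 5 lowest.

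On the high side the largest called change was an IAP-d-int element at chr11:61205941-61211060, which lies within an assembled locus. It had 0.0807 RPM in intact regular (8 reads), 2.12 RPM in knockout regular, 1.21 RPM in intact 2i and 1.39 RPM in knockout 2i. Among the TKO libraries intact regular alone was low, and the ratio in 2i was 1.15. J1 had 1 read in intact regular, 0 in knockout regular, 2 in intact 2i and 60 in knockout 2i at this element. It also lies in the stretch of chromosome 11 described further on. Of the other 4, 3 were MMERVK10C-int elements. The first, at chr4:32117141-32122174, had 3.65 RPM in intact regular, 27.9 RPM in knockout regular, 1.31 RPM in intact 2i and 3.49 RPM in knockout 2i. The remaining pair lies at chr5:3897974-3903055 and chr4:123540352-123545435, with ratios of 5.72 and 6.15 in regular medium and 3.05 and 2.51 in 2i. An IAPEz-int element at chr7:134762666-134769160 had 3.36, 24.6, 5.10 and 10.5 RPM in the order used above. Each of these 4 was higher in the knockout in both media, a shared direction that the choice of named elements required.

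The matched assembled loci showed no shared change of that size. Only loci assembled in every library of a fit could enter it. In TKO, 1090 loci were assembled in both intact libraries only and 823 in both knockout libraries only. Their median FPKM was 1.03 and 1.33, and they were not tested. Limma called 0 of 9658 loci higher (0%) and 0 lower (0%) with all 8 libraries, and 732 were under an unadjusted p of 0.05 (7.58%); the lowest adjusted p was 0.139. The median log2 ratio of FPKM + 1 over the 11195 TKO loci was 0.09 in regular medium and 0.00 in 2i. In regular medium 777 were at least 2-fold higher and 363 at least 2-fold lower, and in 2i 256 were higher and 320 lower. In both media 66 were at least 2-fold higher (0.59%) and 64 at least 2-fold lower (0.572%), while 38 were higher in regular medium and lower in 2i, and 14 the reverse. The sign was shared by 6358 loci (56.8%), with a Spearman coefficient of 0.20 across loci.

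**Figure D4:**
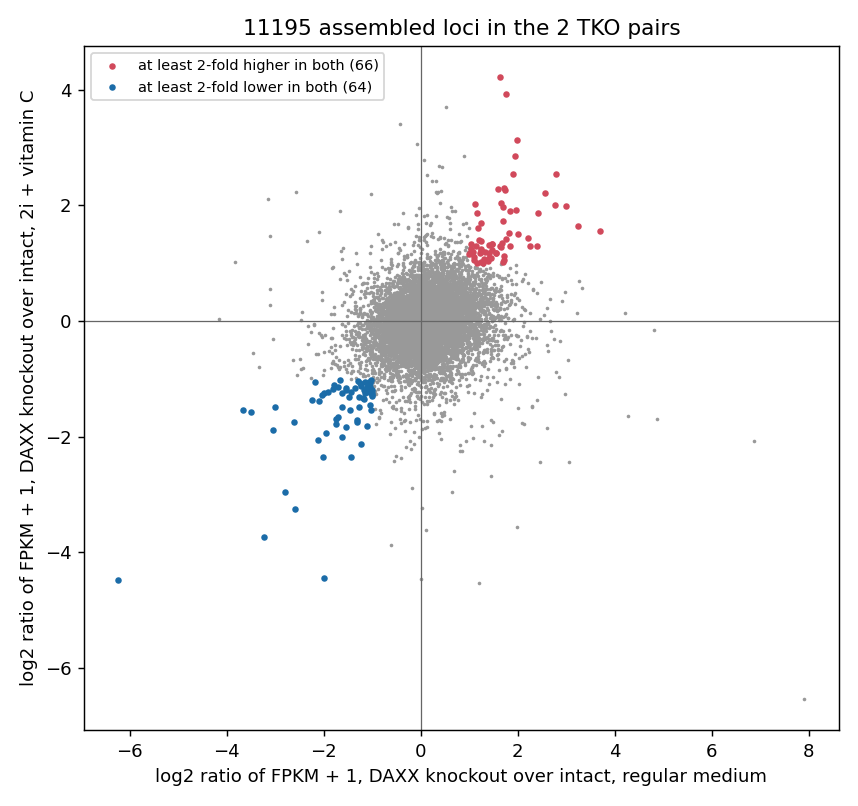
Log2 ratio of FPKM + 1, DAXX knockout over intact, in regular medium (horizontal) and in 2i plus vitamin C (vertical), 1 point per assembled locus. Red points are the 66 loci at least 2-fold higher and blue points the 64 at least 2-fold lower in both media; the grey bulk centres near 0 on both axes.

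Some loci had large values in both media, and the 4 named here were chosen after their values were seen. The locus at chr7:149761415-149764038 had an FPKM of 711 in intact regular, 8.50 in knockout regular, 70.8 in intact 2i and 2.22 in knockout 2i, with an adjusted p of 0.418 in limma. In J1 its FPKM was 120 in intact regular, 15.0 in knockout regular, 7.30 in intact 2i and 56.5 in knockout 2i. The knockout was lower in both TKO pairs and in the J1 regular pair, and higher in the J1 2i pair. The locus at chr6:4697313-4710458 had 313, 32.3, 50.8 and 2.91 in the TKO order used above (adjusted p = 0.139 in limma). The locus at chr2:32816892-32821323 had 407, 2410, 493 and 2290 (adjusted p = 0.332 in limma), and that at chr8:108497420-108503370, which was not matched in J1, had 0.988, 12.7, 3.32 and 24.1. The nearest listed repeat element was 197 to 1032 kb away.

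As a group, loci near listed repeats had a median log2 ratio of 0.03 in regular medium and 0.03 in 2i. Within 10 kb of a listed element lay 965 loci, of which 2 were at least 2-fold higher in both media (0.207%) and 9 at least 2-fold lower in both (0.933%). Over all 11195 loci these shares were 0.59% and 0.572%. The 965 loci were long, with a median of 65047 bp against 19167 bp for the loci with no listed element within 10 kb. The 120 loci near a MERVL-int element had medians of 0.04 in regular medium and 0.03 in 2i, although the elements themselves had −3.23 and −0.67. The 115 loci near an IAPEz-int element had medians of 0.10 and 0.13, against 1.35 and 0.92 for the elements. Of these loci 38.3% were higher in both media and 17.4% lower in both, against 32.4% and 24.4% of all loci. Of the 16 matched loci that coincide with a single listed element, 15 had the sign of the element in regular medium and 12 in 2i. Locus and element values come from the same libraries, so this is not independent evidence.

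Transcripts assembled inside LINE elements were fewer in the knockout libraries. Loci lying at least 50% inside a LINE element numbered 211 in intact regular and 112 in knockout regular, and 105 in intact 2i and 71 in knockout 2i. These were 0.883%, 0.521%, 0.448% and 0.326% of the loci of each library. Inside LTR elements the numbers were 33, 32, 18 and 25. The knockout libraries thus had fewer such LINE loci in both media and no common direction for LTR loci. Library totals also differed, with intact regular the deepest, and the part of depth in these counts was not tested.

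By chromosome, the assembled loci of chromosome 11 stood above those of the other autosomes in both media. The 888 loci there had a median log2 ratio of 0.27 in regular medium and 0.13 in 2i, against 0.09 and 0.00 over all 11195 loci. Of these, 418 (47.1%) were higher in both media and 141 (15.9%) lower in both, against 32.4% and 24.4% of all loci. Chromosome 11 held 7.93% of the loci and 13 of the 66 that were at least 2-fold higher in both. Chromosomes 6 and 19 were higher in regular medium only, with medians of 0.19 and 0.17, and had 0.01 and −0.01 in 2i. The 239 LINE elements on chromosome 11 had medians of −1.09 and −1.31, within the range of the other chromosomes.

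The higher loci of chromosome 11 lay together in its first 70 Mb (mm9), a boundary chosen after the values were seen. In 7 windows of 10 Mb up to that point, with 12 to 96 loci each, the median log2 ratio was 0.42 to 0.59 in regular medium and 0.37 to 0.66 in 2i. In the 6 windows beyond it the medians ran from −0.03 to 0.21 and from −0.10 to 0.06. Of the 349 loci before 70 Mb, 256 (73.4%) were higher in both media and 14 (4.01%) lower in both, while of the 539 beyond it 162 (30.1%) were higher and 127 (23.6%) lower in both. The same stretch was higher in the J1 knockout: over the 305 loci matched in all 8 libraries its median was 0.31 in regular medium and 0.36 in 2i, against −0.21 and −0.12 over 471 loci beyond 70 Mb. TKO intact over J1 intact had medians of −0.08 and −0.03 in the stretch. Both knockout lines were thus above their intact lines along one continuous part of the chromosome. Whether the copy number of that part differs between the lines was not tested.

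**Figure D5:**
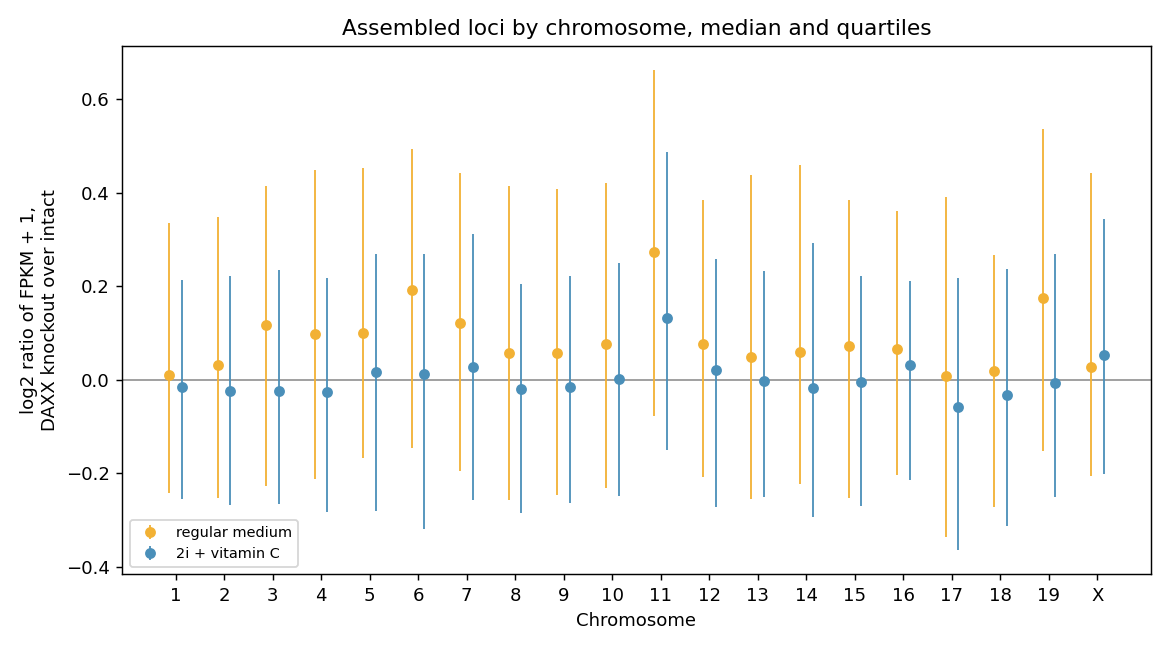
Median (point) and quartiles (line) of the log2 ratio of FPKM + 1, DAXX knockout over intact, of the assembled loci on each chromosome with at least 20 loci, in regular medium (yellow) and in 2i plus vitamin C (blue). Chromosome 11 has the highest median in both media, 0.27 and 0.13.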

How the data were processed

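The members and lists were chosen with earlier results of these data known. Per the labels' protocols, libraries were made from oligo-dT selected cytoplasmic RNA with dUTP in the second strand. TopHat, Bowtie2 2.2.4, Cufflinks, Cuffdiff and mm9 were named in the submitters' processing notes. Per the file headers, the repeat table deposited by the authors holds read counts and RPKM per element, and the locus files hold FPKM per assembled locus. Multi-mapping treatment and the coordinate base are not given in the sources used here.

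Library totals were recovered from count and RPKM. The main test was the quasi-likelihood test of edgeR 4.0.16 in R 4.3.3 on the counts of all 8 libraries with terms for medium, line and DAXX within each line (3 residual degrees of freedom). The media term, TKO by DAXX by medium, was added to a medium effect common to the other 3 lines (2 residual degrees of freedom). A medium by DNMT term was added as an alternative chosen after seeing the data, which makes it the difference of the TKO pairs (1 residual degree of freedom). SE is the log2 change over the root of F. Loci were matched by 50% reciprocal overlap, 1 to 1, and tested with limma 3.58.1 on log2(FPKM + 1), which understates the change of low loci. 1 locus with a failed status was dropped. All tests were two-sided, and Benjamini-Hochberg adjusted p-values under 0.05 were called. With 1 library per group, p-values measure the spread between pairs and not between clones. Ratios of single elements used 1 added read. DESeq2 1.42.0, limma, other scalings, filters and omission of each library were alternatives. Scripts were tested on simulated data.

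Named families had to pass, or be among the 10 with the largest fitted change each way with the same sign in both pairs. Other families are given by values. Named elements were up to 5 each way among those called with the same sign in both pairs. Most read elements, loci coinciding with elements and the 4 named loci were chosen after their values were seen. No sequence is shown, since the reference given is not mm9. Files were read in Python 3.11.15 with pandas 2.3.3.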

Additional observations from a re-analysis of the deposited data

Results flagged for a closer look

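The medium change of MERVL-int and of MERVL_2A-int in the TKO knockout was above the medium change common to J1, J1 knockout and TKO intact, by 2.62 log2 for MERVL-int and by 2.64 log2 for MERVL_2A-int. These terms draw on all 8 libraries, and the difference of the TKO pairs alone, 2.51 and 2.49 log2, did not pass the threshold in edgeR (adjusted p = 0.360 and 0.301).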

How the results depend on the processing

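With TMM, median and LINE1 scaling, called families numbered 0 lower with TMM and 8 higher with LINE1 scaling, elements lower 12, 13 and 11, and elements higher 805, 924 and 923. The media difference was then called for 0 families with TMM and 0 with median scaling. DESeq2 called 1 family higher and 24 lower, 4 and 2 families for a higher and a lower change in 2i, and 23 families lower for TKO against J1. Limma called 599 elements higher, and 4 and 1 families for the media difference. The 4 TKO libraries alone gave 1 family higher and 16 lower and 824 elements higher, and a medium by DNMT term gave 1, 21 and 798, and 0 families higher for the media difference. Without a filter 1493 elements were lower and 62 higher, and with the stricter filter 2 and 0. Leaving out each library in turn gave 0 to 3 families higher, 0 to 22 lower, 0 to 871 elements higher, 3 to 9239 lower, 0 to 3 families higher and 0 to 2 lower for the media difference, and 0 to 24 lower for TKO against J1. The cause of these shifts was not tested. No named family reversed its direction in the fits, while the median family went from −0.93 to 0.25 log2 with LINE1 scaling and the median locus from 0.04 to −0.02 when centred. Loci gave 0 calls under each alternative. The media difference could not be fitted without either TKO knockout library. Libraries were paired by medium alone, which is a term of each fit, since the labels carry no replicate numbers to block on. Intervals cover counting error only.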
